A study of Mus musculus with 76 samples.

Results

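Th, Ddc, Slc18a2 and Slc6a3 are the genes with which a neuron makes, stores and takes back dopamine, and their RNA was counted in 76 single hypothalamic neurons by Patch-seq, in which the content of a recorded cell is drawn into the patch pipette and sequenced. They are 4 of the 56980 genes in the deposited count table. They were selected on values from these same cells, among them the lower mean level of Slc18a2 in Ghost cells, so their levels, shares and ratios are given as descriptions, with no test. The neurons came from male mice that carried Pomc-CreERT2, a tdTomato reporter and Pomc-eGFP. Cre is driven by the Pomc promoter and was induced with tamoxifen at 12 weeks of age, so that tdTomato marks cells in which Pomc was active then. The eGFP is also under the Pomc promoter, and its presence was read at the time of recording. In 42 Pomc+ cells the eGFP label was present, and in 34 Ghost cells, which carried tdTomato, it was absent. The mice then ate chow (CD) or a high-fat diet (HFD) for 6 months, 5 mice on each, which gave 23 Pomc+ CD, 15 Ghost CD, 19 Pomc+ HFD and 19 Ghost HFD cells. The labels name no mouse for any cell, so each combination of label and diet is 1 sample of cells, and intervals on shares are exact (Clopper-Pearson) 95% binomial intervals that cover counting error only.

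Dopamine synthesis starts from tyrosine. Tyrosine hydroxylase (Th) makes L-DOPA with the cofactor tetrahydrobiopterin and is the rate-limiting enzyme, and aromatic L-amino acid decarboxylase (Ddc) turns L-DOPA into dopamine and also makes serotonin from its precursor. The vesicular monoamine transporter VMAT2 (Slc18a2) loads monoamines into vesicles, and the dopamine transporter DAT (Slc6a3) takes released dopamine back up. The arcuate nucleus of the hypothalamus, where Pomc neurons lie, also holds the tuberoinfundibular dopamine neurons, which restrain prolactin release and respond to prolactin. Th RNA in a cell does not by itself make it dopaminergic, since the other steps are also needed.

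On the GRCm38 build, GENCODE places Th (ENSMUSG00000000214) on the minus strand at chr7:142892752-142931128, Ddc (ENSMUSG00000020182) on the minus strand at chr11:11814101-11898144, Slc18a2 (ENSMUSG00000025094) on the plus strand at chr19:59260896-59296012 and Slc6a3 (ENSMUSG00000021609) on the plus strand at chr13:73536747-73578672. Their merged exons measure 2364, 4461, 5225 and 3456 bases. No exon of another gene overlaps those of Th, Ddc and Slc6a3, whereas exons of Gm29261 lie on the opposite strand of Slc18a2. The library kit does not mark strand, so reads of that pair cannot be told apart, and Gm29261 itself had no count in any cell.

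The sequence before the transcription start is shown for the 3 genes that were counted in many cells, because the pairs among them differed in how often they shared a cell. RefSeq (GRCm38.p6) promoter windows matched for all 4 members. Each stretch runs 5′ to 3′ from 150 bases before the start to 30 bases after it. Capitals mark matches on either strand to the cAMP response element TGACGTCA, a site known for factors of the CREB family, or to AAAGGTCA, known as NBRE and bound by Nr4a factors.
Th (chr7:142899966-142900145, minus strand): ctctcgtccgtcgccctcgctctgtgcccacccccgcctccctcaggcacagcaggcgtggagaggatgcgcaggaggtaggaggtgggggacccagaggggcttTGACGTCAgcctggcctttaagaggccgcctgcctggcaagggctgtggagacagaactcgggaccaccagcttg
Slc18a2 (chr19:59260728-59260907, plus strand): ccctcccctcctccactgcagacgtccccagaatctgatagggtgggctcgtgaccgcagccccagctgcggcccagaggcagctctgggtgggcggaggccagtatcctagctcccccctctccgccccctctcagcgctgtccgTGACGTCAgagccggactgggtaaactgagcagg
Ddc (chr11:11898115-11898294, minus strand, the more upstream of 2 windows): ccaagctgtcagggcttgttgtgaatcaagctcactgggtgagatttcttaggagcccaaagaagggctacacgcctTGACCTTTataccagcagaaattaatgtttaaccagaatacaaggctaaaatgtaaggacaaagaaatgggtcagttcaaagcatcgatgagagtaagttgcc
The cAMP response element began at position -45 from the start in Th and at position -4 in Slc18a2. Of 32851 promoter windows of the same length in the table, 1.79% held these letters. In Ddc, the first window held AAAGGTCA on the opposite strand from position -73, letters found in 1.51% of all windows, and its second window held neither. Counts per gene do not show which of the 2 Ddc starts these neurons used. The Slc6a3 window held neither run of letters. A match describes the letters only.

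Levels are given in CPM, the counts of a gene in a cell per 1000000 counts of that cell. Th was counted in 20 of the 76 cells (26.3%, interval 16.9% to 37.7%), Ddc in 24 (31.6%, 21.4% to 43.3%), Slc18a2 in 18 (23.7%, 14.7% to 34.8%) and Slc6a3 in 4 (5.26%, 1.45% to 12.9%). Over all cells they held 1543, 1311, 1622 and 36 counts. Per kilobase of merged exon, the mean level was highest for Th with 14.5 CPM per kilobase, followed by Slc18a2 with 7.78, Ddc with 6.40 and Slc6a3 with 0.676. The spread between cells exceeded the mean of each of the first 3, with CPM (not per length) of 34.2 ± 93.0 for Th, 40.7 ± 103 for Slc18a2 and 28.6 ± 63.7 for Ddc (mean ± SD, 76 cells). By CPM not per length Slc18a2 came before Th, and neither order was tested. A few cells held high levels, and the median was 0 CPM in every group. The highest 3 cells held 47.3% of the summed CPM of Th, 37.5% of that of Ddc and 38.5% of that of Slc18a2.

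**Figure D1:**
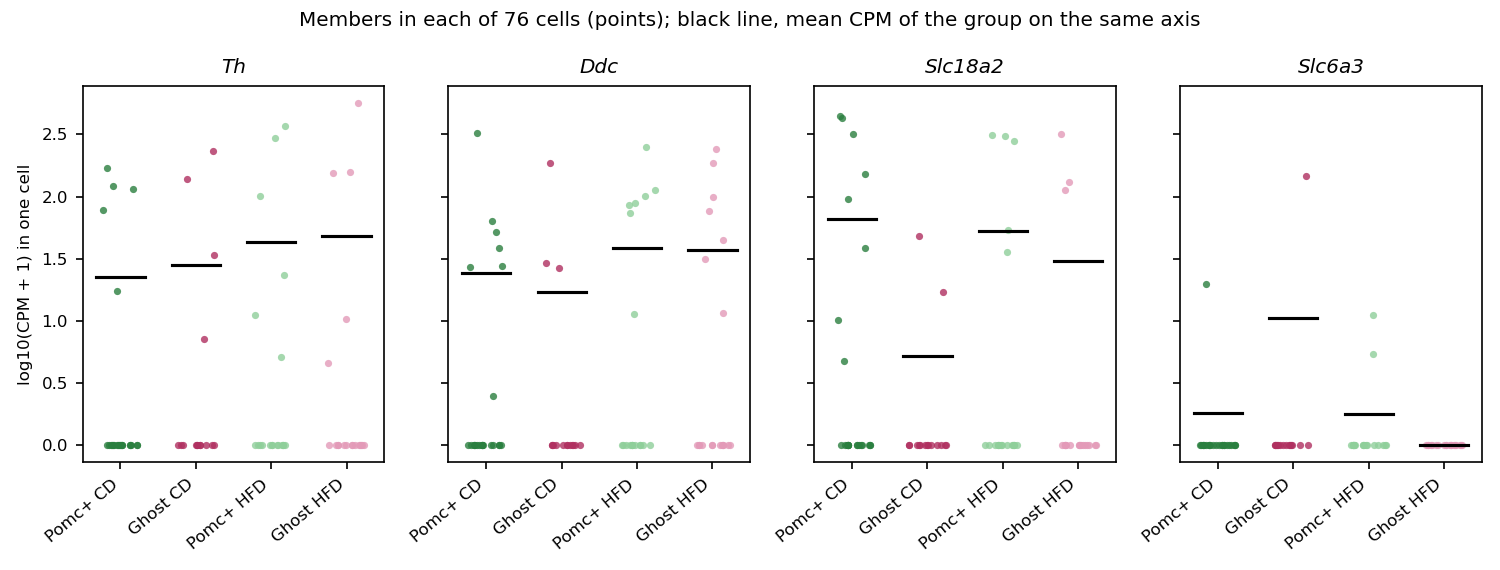
CPM of each member in each cell on a log10(CPM + 1) axis, by label and diet (23 Pomc+ CD, 15 Ghost CD, 19 Pomc+ HFD and 19 Ghost HFD cells). Points are cells and black lines the mean CPM of a group placed on the same axis. Most cells sit at 0 for all 4 genes, and Ghost CD has its 2 Slc18a2 cells at 16.2 and 47.4 CPM, below the upper Pomc+ cells.

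Sequencing depth moved with detection. Total counts ranged from 4057 to 1452605 per cell, with medians of 366744 in Pomc+ and 309718 in Ghost cells. By group the medians were 339691 in Pomc+ CD, 123528 in Ghost CD, 393797 in Pomc+ HFD and 333785 in Ghost HFD, so Ghost CD was the shallowest. The median numbers of genes counted were 2540, 3199, 3501 and 2453 in the same order. The 20 cells with a Th count had a median total of 723063 against 213280 in the others. For Ddc the medians were 562906 and 213280, and for Slc18a2 they were 633398 and 263328. Among the 25 shallowest cells, Th was counted in 2, Ddc in 2 and Slc18a2 in 3, whereas among the 26 deepest they were counted in 12, 13 and 10. A cell without a count is therefore one in which the RNA was not detected at its depth. The files hold no other cell type with which to measure a background share, and no molecular identifiers were used, so counts are of reads.

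Th, the first enzyme, was counted in near-equal shares of Pomc+ and Ghost cells. In Pomc+ CD cells, 5 of 23 had a Th count (16.3 to 170.0 CPM, median 114 among them). In Ghost CD cells 4 of 15 did, at 6.09, 32.9, 137 and 233 CPM. In Pomc+ HFD cells 6 of 19 did, from 4.09 to 369 CPM with a median of 61, and in Ghost HFD cells 5 of 19 did, at 3.59, 9.25, 153, 158 and 564 CPM. The groups overlapped over almost their whole range, and the single highest cell was a Ghost HFD cell. By label, 11 of 42 Pomc+ (26.2%, 13.9% to 42%) and 9 of 34 Ghost cells (26.5%, 12.9% to 44.4%) had a count. The mean was 38.1 CPM in Ghost and 30.9 CPM in Pomc+, a ratio of 1.23. Without that highest cell (cell number 671), the ratio was 0.718, so its direction rested on 1 cell.

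Ddc, the decarboxylase, was likewise found in all 4 groups. It was counted in 7 of 23 Pomc+ CD cells, from 1.49 to 325 CPM with a median of 37.4 among them. In Ghost CD it was counted in 3 of 15 cells, at 25.4, 28.4 and 185 CPM. In Pomc+ HFD it was counted in 7 of 19 cells (10.4 to 249 CPM, median 87.2) and in Ghost HFD also in 7 of 19 (10.6 to 241 CPM, median 75.3). These ranges overlapped. The share was 33.3% (19.6% to 49.5%) in Pomc+ and 29.4% (15.1% to 47.5%) in Ghost cells. Mean CPM was 29.7 in Pomc+ and 27.1 in Ghost, a ratio of 0.913, but the ratio was 0.436 on the deposited normalized counts. Its direction turned without the genes counted in every cell (1.26) and without Pomc+ CD cell 662 (1.21).

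Slc18a2, the vesicular transporter, was the member that differed most between labels among the 3 that were counted in at least 10 cells. It was counted in 8 of 23 Pomc+ CD cells, at 3.73, 9.19, 37.9, 94.5, 151, 317, 427 and 447 CPM, and in 2 of 15 Ghost CD cells, at 16.2 and 47.4 CPM. In Pomc+ HFD it was counted in 5 of 19 cells, at 34.5, 53.2, 277, 305 and 313 CPM. In Ghost HFD it was counted in 3 of 19 cells, at 112, 129 and 316 CPM. Ghost cells thus had fewer positive cells in both diets, whereas the positive Ghost HFD cells reached the levels of Pomc+ cells. The share was 31% (17.6% to 47.1%) in Pomc+ and 14.7% (4.95% to 31.1%) in Ghost cells, and these intervals overlap. The mean was 58.8 CPM in Pomc+ and 18.2 CPM in Ghost, a ratio of 0.310. The ratio was 0.157 without the highest Ghost cell (Ghost HFD cell 653) and 0.536 when counts were pooled over cells first.

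**Figure D2:**
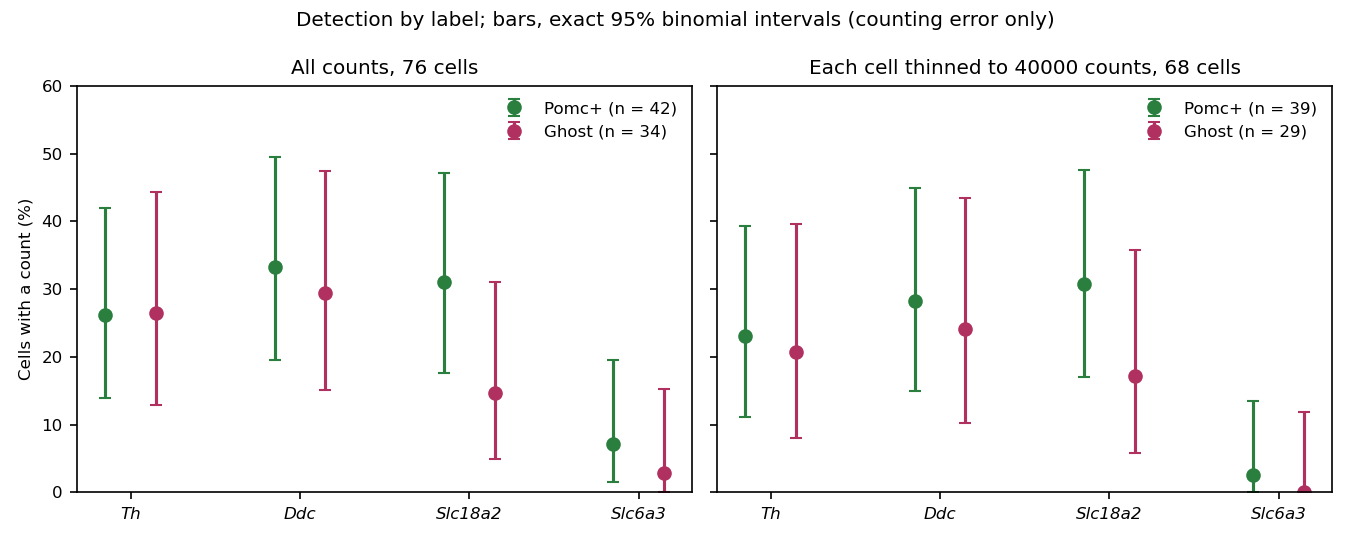
Percent of Pomc+ and Ghost cells with a count of each member, from all counts (42 and 34 cells, left) and after each cell was thinned to 40000 counts (39 and 29 cells, right), with exact 95% intervals. The intervals of the labels overlap for every member, and Slc18a2 has the widest gap, 31% against 14.7% on the left and 30.8% against 17.2% on the right.

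Fold differences of this size were common among the genes. Of 12265 genes that reached 5 counts in no fewer than 3 cells, 26% were at least 2-fold lower in Ghost than in Pomc+ by mean CPM and 16.4% were at least 2-fold higher. Slc18a2 was the single member past 2-fold, in the lower direction, while Th and Ddc were not, and Slc6a3 did not pass the filter. The median log2 ratio over all of these genes was -0.15, and relative to it Slc18a2 lay at -1.54, Ddc at 0.02 and Th at 0.45. The log2 ratios themselves were -1.69, -0.13 and 0.30. With 1 sample of cells per group there is no replicate check, and since Slc18a2 was chosen with this difference known, nothing is read from its place among all genes.

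The label ratio of Slc18a2 stood at different sizes in the 2 diets. In CD the mean was 4.24 CPM in Ghost and 64.7 in Pomc+, a ratio of 0.0656, and in HFD it was 29.3 and 51.7 CPM, a ratio of 0.567. At least 2-fold lower means in Ghost were found for 33.3% of genes in CD and 34.4% in HFD, and at least 2-fold higher means for 23.5% and 21.8%. Th had ratios of 1.26 in CD and 1.11 in HFD, and Ddc 0.690 and 0.953, so that neither passed 2-fold in either diet. Cells of the 2 diets were numbered in 8 alternating runs, and what a run stands for was not given. Within the runs in which both labels had at least 3 cells and a Slc18a2 count, the Ghost to Pomc+ ratio was 0.629, 0.0510 and 1.0. In 3 further runs of that size, Pomc+ cells had counts and no Ghost cell did.

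Between diets, Th and Ddc had higher mean CPM in HFD under both labels, and this direction was not kept by every scaling. Th was 42.2 CPM in HFD against 21.7 in CD among Pomc+ cells, a ratio of 1.95, and 46.7 against 27.3 among Ghost cells, a ratio of 1.71. Ddc was 37.7 against 23.1 among Pomc+ cells, a ratio of 1.63, and 36 against 16 among Ghost cells, a ratio of 2.25. When the counts of Ghost cells were pooled first, the ratios were 0.705 for Th and 0.801 for Ddc. On the deposited normalized counts, Ddc in Pomc+ cells had a ratio of 0.726. Without 1 cell each, Th was at 1.11 in Pomc+ (without Pomc+ HFD cell 642) and at 0.660 in Ghost (without Ghost HFD cell 671), or at 3.71 without Ghost CD cell 635. Ddc was at 4.02 in Pomc+ without Pomc+ CD cell 662 and at 9.36 in Ghost without Ghost CD cell 687. Slc18a2 was at 51.7 CPM in HFD against 64.7 in CD among Pomc+ cells, a ratio of 0.799 (1.09 without Pomc+ CD cell 660), and at 29.3 against 4.24 among Ghost cells, a ratio of 6.91. The Ghost ratio rests on 3 HFD and 2 CD cells, and it was 3.15 without Ghost HFD cell 653 and 25.3 without Ghost CD cell 709. Median totals were 123528 in Ghost CD and 333785 in Ghost HFD cells, and their part was not tested.

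The background of these diet ratios was as wide. Among Pomc+ cells 28.7% of genes were at least 2-fold higher in HFD and 22.7% at least 2-fold lower. Among Ghost cells these shares were 31.6% and 28.3%. Of the members that passed the filter, none passed 2-fold in Pomc+ cells and 2 of 3, Ddc and Slc18a2, did in Ghost cells, in the higher direction. By diet alone, the shares of cells with a count were 23.7% and 28.9% for Th, 26.3% and 36.8% for Ddc and 26.3% and 21.1% for Slc18a2, in CD and HFD, and the intervals of each pair overlapped.

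Slc6a3, the dopamine transporter, was at the edge of detection. Its 36 counts lay in 4 cells. A Pomc+ CD cell (631) had 27 counts (18.6 CPM), Pomc+ HFD cells 672 and 718 had 1 and 4 counts (4.37 and 10.2 CPM), and Ghost CD cell 711 had 4 counts, which came to 144 CPM because that cell had 27715 counts in all. No Ghost HFD cell had a count, and 0 of 19 cells, taken as 3 counts, allows up to 15.8% of cells with a count (the exact interval reaches 17.6%). The Ghost to Pomc+ ratio was 5.38 by mean CPM and 0.170 by pooled counts, so no direction can be given. Only cell 631 held Slc6a3 together with Ddc and Slc18a2, and none held it with all 3 other members.

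Co-detection showed which steps of the pathway were counted in the same neuron. At least 1 of Th, Ddc and Slc18a2 was counted in 41 of 76 cells (53.9%, 42.1% to 65.5%), at least 2 in 19 (25%, 15.8% to 36.3%) and all 3 in 2. The 2 cells with all 3 were Pomc+ CD cell 663 (Th 114, Ddc 51.1 and Slc18a2 427 CPM) and Ghost HFD cell 671 (Th 564, Ddc 99.0 and Slc18a2 112 CPM). By label, 13 of 42 Pomc+ (31%, 17.6% to 47.1%) and 6 of 34 Ghost cells (17.6%, 6.76% to 34.5%) had at least 2 of the 3, and the intervals overlap. Th stood alone in 10 cells, Ddc in 8 and Slc18a2 in 4.

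**Figure D3:**
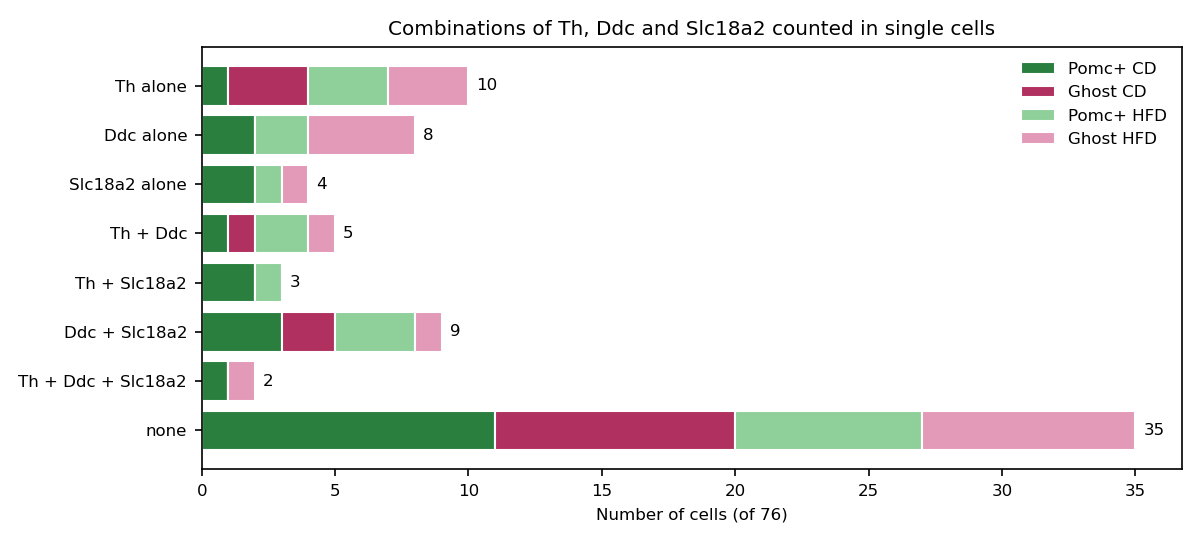
Number of cells, of 76, with each exact combination of Th, Ddc and Slc18a2 counts, stacked by label and diet, with the total at the end of each bar. The most frequent combination of 2 or more genes is Ddc with Slc18a2 in 9 cells, all 3 genes were counted in 2 cells, and none of them in 35.

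Ddc and Slc18a2 were counted together more often than either was with Th. Ddc was counted in 11 of the 18 Slc18a2 cells (61.1%, 35.7% to 82.7%) and in 13 of the 58 others (22.4%, 12.5% to 35.3%). This order was present under both labels, with 4 of 5 against 6 of 29 in Ghost and 7 of 13 against 7 of 29 in Pomc+ cells. Th showed no such pairing. It was counted in 5 of 18 Slc18a2 cells (27.8%) and in 15 of 58 others (25.9%), and Ddc was counted in 7 of 20 Th cells (35%, 15.4% to 59.2%) and in 17 of 56 others (30.4%, 18.8% to 44.1%). Thus 13 of the 20 neurons with RNA of the first enzyme had no count of the second.

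Depth moved with these shares too. Among the 38 cells at or above the median total, Ddc was counted in 6 of 11 Slc18a2 cells and 11 of 27 others. Among the 38 shallower cells it was counted in 5 of 7 and 2 of 31. The part of depth in the pairing of Ddc with Slc18a2 was not tested. By the correlation of CPM given below, Ddc ranked only 3250th of 9072 genes with Slc18a2, so the pairing is not particular to these 2 genes. In the deeper cells Ddc was counted in 6 of 16 Th cells and in 11 of 22 others.

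The 41 cells all held Pomc, the precursor of alpha-MSH, and its partner peptide gene Cartpt. Nearly all other cells did too, since each gene was counted in 32 of the 35 cells with none of the 3 members (91.4%). Those 35 cells were also shallower, with a median total of 117909 against 613833. Mean Pomc was 7925 CPM in Pomc+ and 4838 CPM in Ghost cells, a Ghost to Pomc+ ratio of 0.610. The ratio was 0.540 in CD and 1.08 in HFD, so the mean was lower in Ghost cells in CD but not in HFD. Both labels held cells with 0 CPM of Pomc, and the highest values were 43974 CPM in Pomc+ and 34418 CPM in Ghost cells. Median Pomc was higher where Slc18a2 or Ddc was counted. Among Pomc+ cells its median was 11514 CPM (1089 to 43974) in the 13 with Slc18a2 and 2085 CPM (0 to 20178) in the 29 without. Among Ghost cells it was 8400 CPM (2437 to 34418) in the 5 with Slc18a2 and 2087 CPM (0 to 15213) in the 29 without. The ranges overlapped under both labels. Total counts moved with Slc18a2 as given above, and their part was not tested. The order was the same for Ddc, with 9418 CPM in the 14 Pomc+ cells with Ddc against 2243 in the 28 without, and 4290 CPM in the 10 Ghost cells with Ddc against 2064 in the 24 without. For Th the order of the Pomc medians differed by label, with 7026 CPM in the 11 Pomc+ cells with Th against 3455 in the 31 without, and 2216 CPM in the 9 Ghost cells with Th against 2437 in the 25 without.

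**Figure D4:**
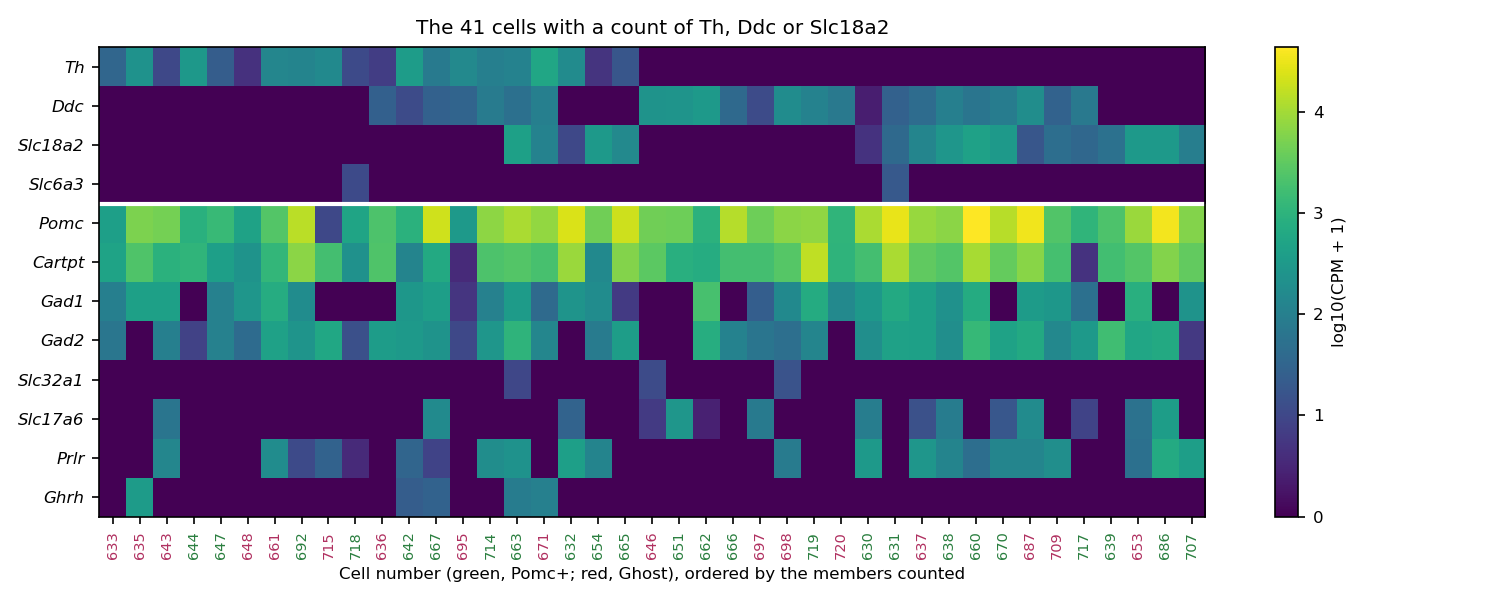
Log10(CPM + 1) of the 4 members (above the white line) and of 8 partner genes (below it) in the 41 cells with a count of Th, Ddc or Slc18a2, ordered by the members counted, with Pomc+ cell numbers in green and Ghost cell numbers in red. Pomc and Cartpt are present in every column, Slc32a1 is dark in nearly all, and Prlr is seen in 13 of the 18 Slc18a2 cells.

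The genes for GABA synthesis, Gad1 and Gad2, were counted in 16 and 18 of the 20 Th cells, in 19 and 21 of the 24 Ddc cells and in 15 and 17 of the 18 Slc18a2 cells. In cells without the member they were counted in 46.4% and 51.8% for Th, 44.2% and 50% for Ddc and 46.6% and 51.7% for Slc18a2. Depth moved with these shares. Among the deeper 38 cells, Gad1 was counted in 76.5% of Ddc cells and 71.4% of the others, in 87.5% and 63.6% for Th and in 100% and 63% for Slc18a2, and Gad2 in 88.2% and 66.7% for Ddc, 87.5% and 68.2% for Th and 90.9% and 70.4% for Slc18a2. Slc32a1, the vesicular GABA transporter, was counted in 1 Th cell, 3 Ddc cells and 1 Slc18a2 cell, and in 4 of 56, 2 of 52 and 4 of 58 cells without the member. Slc17a6, the vesicular glutamate transporter VGLUT2, was counted in 3 of 20 Th cells (15%, 3.21% to 37.9%), 11 of 24 Ddc cells (45.8%, 25.6% to 67.2%) and 9 of 18 Slc18a2 cells (50%, 26% to 74%). In cells without the member the shares were 28.6% (17.3% to 42.2%) for Th, 15.4% (6.88% to 28.1%) for Ddc and 17.2% (8.59% to 29.4%) for Slc18a2. The share was thus lower in Th cells and higher in Ddc and Slc18a2 cells than in the rest, and the intervals of each pair overlap. In the deeper cells VGLUT2 was counted in 3 of 16 Th cells and 12 of 22 others, in 9 of 17 Ddc cells and 6 of 21 others, and in 6 of 11 Slc18a2 cells and 9 of 27 others.

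Prlr, the prolactin receptor, and Ghrh, the growth hormone-releasing hormone, are known in arcuate neurons that make Th. Prlr was counted in 13 of 18 Slc18a2 cells (72.2%, 46.5% to 90.3%) and 16 of 58 others (27.6%, 16.7% to 40.9%). In the deeper 38 cells it was counted in 9 of 11 and 9 of 27. In Th cells Prlr was counted in 11 of 20 (55%, 31.5% to 76.9%) against 18 of 56 others (32.1%, 20.3% to 46%). Ghrh was counted in 5 of 20 Th cells (25%, 8.66% to 49.1%) and in 3 of 56 others (5.36%, 1.12% to 14.9%), intervals that overlap. Both cells with all 3 members had Ghrh, at 88.1 CPM in cell 663 and 106 CPM in cell 671, while Prlr was at 232 CPM in the first and 0 in the second.

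Around the members, 33 genes of 6 lists were examined, of which 24 had a count in some cell, 13 passed the filter and 10 were counted in at least 10 cells. Of the 13, 3 were at least 2-fold lower and 3 at least 2-fold higher in Ghost, beside the 26% and 16.4% over all genes. The cofactor list was the best covered. Pcbd1 and Qdpr, which recycle tetrahydrobiopterin, were counted in 44 and 45 cells, Spr, Pts and Gch1, which make it, in 29, 20 and 17, and Gchfr, a regulator of Gch1, in 3. Over its 6 genes the median log2 ratio (Ghost to Pomc+) was 0.30, beside -0.15 over all genes, and with the diets pooled only Gchfr passed 2-fold, as higher, with counts in 1 Pomc+ and 2 Ghost cells (ratio 7.56, and 2.08 without Ghost HFD cell 655). Mean CPM in Pomc+ and Ghost was 53.8 and 39 for Gch1, the rate-limiting enzyme of cofactor synthesis, 28.8 and 51.6 for Pts, 35.1 and 33.8 for Spr, 64.1 and 70.8 for Qdpr and 160.3 and 219.9 for Pcbd1. By mean CPM, the ratios of 5 of these genes lay on opposite sides of 1 in the 2 diets. The Ghost to Pomc+ ratio was 0.350 in CD and 4.95 in HFD for Pts, 0.283 and 2.1 for Spr, 0.659 and 1.77 for Qdpr, 2.30 and 0.625 for Pcbd1 and 1.13 and 0.389 for Gch1. Some rest on few cells, since Pts was counted in 2 Ghost CD cells and Gch1 in 2 Ghost HFD cells. The highest single cells held 2093 CPM of Pcbd1, 930.2 of Qdpr and 913 of Gch1. Over all genes, 33.3% in CD and 34.4% in HFD were at least 2-fold lower in Ghost, and 23.5% and 21.8% at least 2-fold higher. The share of all genes that change side between diets was not computed, and whether these ratios differ by diet was not tested.

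The cofactor enzymes lay unevenly over the member cells. Gch1 was counted in 11 of 24 Ddc cells (45.8%, 25.6% to 67.2%) and 6 of 52 others (11.5%, 4.35% to 23.4%), and in 9 of 18 Slc18a2 cells (50%, 26% to 74%) and 8 of 58 others (13.8%, 6.15% to 25.4%). In Th cells, which need the cofactor, it was counted in 4 of 20 (20%, 5.73% to 43.7%) and in 13 of 56 others (23.2%, 13% to 36.4%). Spr, the last enzyme of cofactor synthesis, was counted in 16 of 20 Th cells (80%, 56.3% to 94.3%) and 13 of 56 others (23.2%, 13% to 36.4%). In the deeper 38 cells the shares were 13 of 16 and 8 of 22 for Spr in Th cells, and 8 of 17 and 3 of 21 for Gch1 in Ddc cells.

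**Figure D5:**
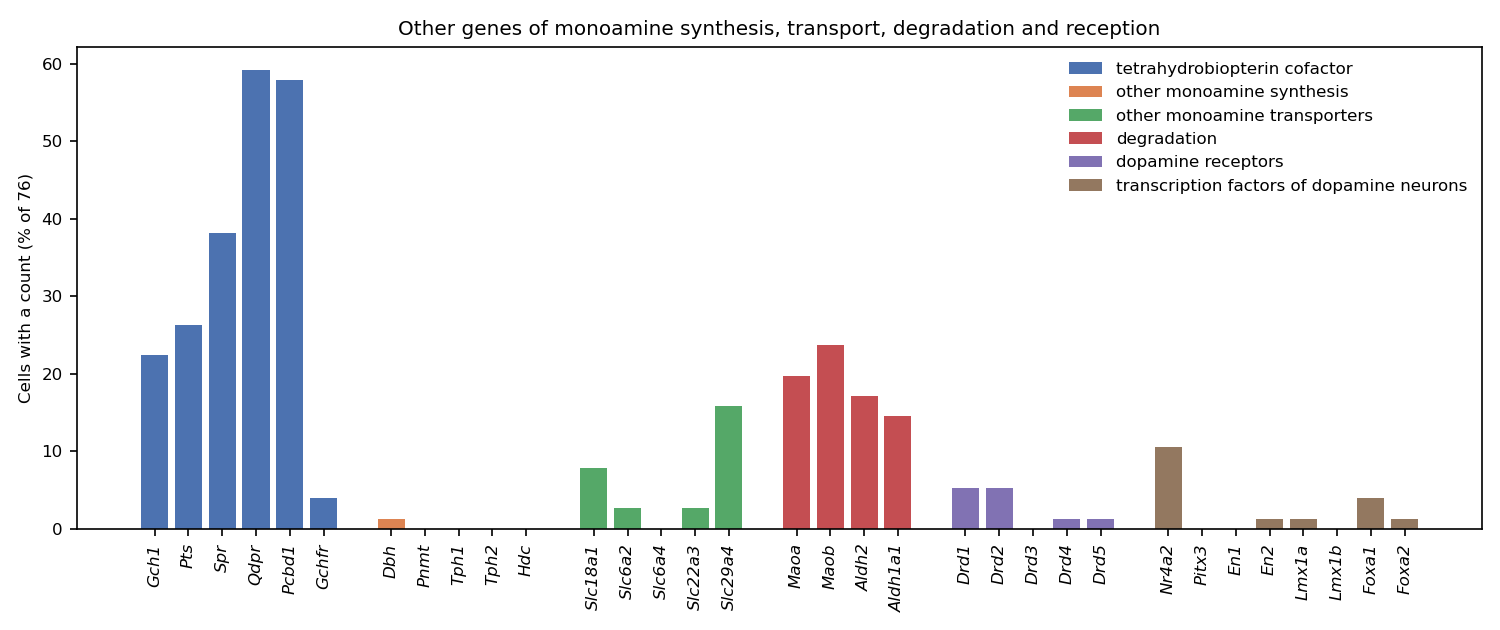
Percent of the 76 cells with a count of each of 33 genes of monoamine synthesis, transport, degradation and reception, coloured by list. Cofactor and degradation genes reach 59.2% (Qdpr) and 23.7% (Maob), while the other synthesis enzymes, the receptors and the transcription factors stay at or below 10.5% (Nr4a2).

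Synthesis genes of the other monoamines were at or near 0. Tph1 and Tph2 (serotonin), Hdc (histamine) and Pnmt (adrenaline) were at 0 in all 76 cells, which, taken as 3 counts, allows for each up to 3.95% of cells with a count at these depths (the exact interval reaches 4.74%). This does not limit the share of cells that express the gene. Dbh, which makes noradrenaline from dopamine, had 8 counts in 1 Ghost CD cell. Among transporters, Slc6a4 (serotonin) had none and Slc6a2 (noradrenaline) and Slc22a3 (an organic cation transporter) were counted in 2 cells each. Slc18a1, the other vesicular transporter (VMAT1), was counted in 6 cells, with 47 counts in all. Slc29a4, a low-affinity monoamine transporter, was counted in 12 cells, with mean CPM of 26.6 in Pomc+ and 6.55 in Ghost. Of the 2 genes of that list that passed the filter, Slc29a4 was past 2-fold lower in Ghost (0.247, and 0.352 without Pomc+ CD cell 658) and Slc18a1 past 2-fold higher. The Slc18a1 mean of 18.8 CPM in Ghost rested on Ghost CD cell 659 at 529 CPM and was 3.29 CPM without it, against 0.200 CPM in Pomc+.

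The 4 degradation genes examined all passed the filter. The monoamine oxidases Maob and Maoa were counted in 18 and 15 cells, and the aldehyde dehydrogenases Aldh2 and Aldh1a1 in 13 and 11. Maob had a mean of 55.8 CPM in Pomc+ and 13.9 in Ghost, and Aldh1a1 44.5 and 12.9, both at least 2-fold lower in Ghost. Each rested on few cells, since Maob was counted in 10 of 42 Pomc+ and 8 of 34 Ghost cells and Aldh1a1 in 6 and 5. Without the highest cell of each (Pomc+ CD cells 699 and 700), the ratios of 0.25 for Maob and 0.289 for Aldh1a1 were 0.439 and 0.681, so the 2-fold difference of Aldh1a1 ended. In HFD alone, Maob was at 0.618 and Aldh1a1 at 0.369, the latter with counts in 2 Pomc+ and 2 Ghost cells. The other two were within 2-fold, with 25.1 and 23.9 CPM for Maoa and 3.94 and 5.13 CPM for Aldh2. Over these 4 genes, which are not the whole list, the median log2 ratio was -0.93. Dopamine receptors were sparse, with Drd1 and Drd2 in 4 cells each, Drd4 and Drd5 in 1 each and Drd3 in none. The 4 Drd2 cells were all Pomc+, and of the 4 Drd1 cells 3 were Ghost. Of the receptors only Drd1 passed the filter, as higher in Ghost, with mean CPM of 3.83 and 1.58, and its counts in Pomc+ lay in 1 cell (630).

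Transcription factors that specify midbrain dopamine neurons were rarely counted. Pitx3, En1 and Lmx1b had no count, Foxa1 was counted in 3 cells, and En2, Lmx1a and Foxa2 in 1 each. Nr4a2, a nuclear receptor known to drive Th transcription in the midbrain, was counted in 8 cells with 43 counts in all, and none of the 8 genes passed the filter.

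The genes most like each member over the 76 cells were sought by the Spearman correlation of CPM among 9072 genes with a symbol and a count in at least 10 cells. For Slc18a2 they were 4833420G17Rik (rho 0.713), Ero1l (0.690), Rnf128 (0.685), Txndc5 (0.685) and Stambpl1 (0.682). For Ddc they were Cttn (0.608), Ndufb2 (0.589), Surf2 (0.584), Fopnl (0.574) and Arfrp1 (0.558), and for Th they were Crabp1 (0.494), Itih3 (0.470), Rpa1 (0.464), Vma21 (0.464) and Snhg1 (0.464). No member was among the 5 nearest of another. Ddc with Slc18a2 had a rho of 0.325, whereas Th had 0.0216 with Ddc and 0.0283 with Slc18a2. Of the 9072 genes, Ddc ranked 3250th by rho with Slc18a2, and Slc18a2 ranked 1346th with Ddc, so many genes lay nearer to each. For Th, Ddc ranked 7270th and Slc18a2 7129th. All points share the depth of their library, and rho with the number of genes counted per cell was 0.390 for Th, 0.497 for Ddc and 0.541 for Slc18a2. With total counts it was 0.407 for Th, 0.373 for Ddc and 0.240 for Slc18a2. In the 55 cells with at least 100000 counts, rho for the 5 genes nearest to Slc18a2 was 0.752, 0.674, 0.757, 0.728 and 0.754. For those nearest to Ddc it was 0.583, 0.583, 0.548, 0.552 and 0.529, and for those nearest to Th 0.422, 0.522, 0.414, 0.410 and 0.374.

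The labels give the cells as Pomc neurons of the hypothalamus, and the marker lists were read against this. All 6 neuron and all 5 Pomc neuron markers were counted, and the summed neuron markers had a median of 1445 CPM (0 to 4132) in Pomc+ and 988 CPM (89.0 to 3176) in Ghost cells. The summed Pomc neuron markers had medians of 5227 (92.8 to 54819) and 4564 CPM (0 to 41042). Markers of other cells were also counted. In Pomc+ and Ghost cells, the medians of the summed lists were 47.5 (0 to 1122) and 18 CPM (0 to 644) for 5 astrocyte markers, 118 (0 to 5166) and 207 CPM (0 to 1225) for 5 oligodendrocyte markers, 0 (0 to 7405) and 71.6 CPM (0 to 5994) for 5 microglia markers and 9.84 (0 to 1234) and 0 CPM (0 to 2647) for 3 erythrocyte markers. Endothelial markers (4) were counted in 7 Pomc+ and 1 Ghost cell, and tanycyte and ependymal markers (3 of 4, with Rax at 0) in 2 and 5 cells. In Th, Ddc and Slc18a2 cells the microglia medians were 0.994, 0.344 and 0 CPM, and the oligodendrocyte medians 283, 152 and 102 CPM, beside 0 and 94.9 CPM in the 35 cells with none of the 3. The mean microglia sum was 562 CPM in Th cells (up to 7405) and 585 in those 35. By diet, mean microglia sums in CD and HFD were 109.6 and 833 CPM in Pomc+ and 79.6 and 839 in Ghost cells. Erythrocyte means were 36.6 and 235 in Pomc+ and 7.51 and 257 in Ghost. Astrocyte means were 149 and 254 in Pomc+, but 78.8 and 48.5 in Ghost. Whether RNA of other cells had a part in the values of the members was not tested.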

How the data were processed

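The data are Patch-seq libraries of 76 cells, prepared by SMART-Seq Single Cell and Nextera XT kits. The members and gene lists were chosen with earlier results of these data known. The authors deposited raw counts per gene and cell, and the submitters' processing notes name cutadapt 2.10, STAR 2.7.5a, DESeq2 and the GRCm38 (mm10) build, whereas the counting program and annotation release were not given in the sources used here. In the second deposited table each value is a normalized signal, which was checked to be the raw count over 1 size factor in all 76 cells. Symbols matched 52073 of 56980 identifiers. CPM was the count divided by the cell's total over all genes. All cells were kept, ratios of mean CPM compared the groups, and no test was run, as the labels name no mouse. No doublet caller was run on cells patched by hand, and no 2 columns were identical. Thinning drew 40000 counts per cell without replacement and left out 8 shallower cells, 3 Pomc+ and 5 Ghost. A call was a 2-fold ratio among genes that reached 5 counts in no fewer than 3 cells. The named genes were the members, the listed pathway genes counted in at least 10 cells (the others as counts), 8 partner genes and the 5 genes with the highest rho for each member counted in at least 10 cells. Drd1, Gchfr, Slc18a1, Nr4a2 and Gm29261 were named outside this rule, after their values were seen. 1 gene of the degradation list is not reported here. The ratio script was tested on simulated data. Alternatives were the deposited normalized signal, CPM after removing 7 genes that all cells counted (43.7% of counts), pooled counts, a cell filter, thinning, higher detection thresholds, single diets, runs of cell numbers and leaving out each cell. Python 3.11.15, NumPy 2.4.6, pandas 2.3.3 and SciPy 1.17.1 were used.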

Additional observations from a re-analysis of the deposited data

Results flagged for a closer look

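The diet ratio of Slc18a2 pointed in opposite directions under the 2 labels. HFD to CD was 6.91 in Ghost cells and 0.799 in Pomc+ cells by mean CPM. The difference between these ratios was not tested, because the labels name no mouse, the Ghost ratio rests on 5 cells with a count, and the Pomc+ ratio was 1.09 without Pomc+ CD cell 660, so the opposite direction rested on that cell. Among the cofactor genes, the Ghost to Pomc+ ratio lay on opposite sides of 1 in CD and HFD for Pts (0.350 and 4.95), Spr (0.283 and 2.1), Qdpr (0.659 and 1.77), Pcbd1 (2.30 and 0.625) and Gch1 (1.13 and 0.389), which was not tested either. Few cells lay behind some of these ratios, with Pts in 2 Ghost CD cells and Gch1 in 2 Ghost HFD cells. How many of all genes change side in this way was not computed.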

How the results depend on the processing

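For 24 results, 144 alternatives were computed. A ratio was taken as unmoved within 1.5 times its value, a share within its interval and a number of cells within 1.5 times. By this rule 107 alternatives were unmoved, 34 moved and 3 were reversed, which meant that a ratio of at least 2-fold crossed 1. A ratio near 1 could thus change direction and still count as unmoved, as that of Ddc by label did at 1.26. For Slc18a2 the Ghost to Pomc+ ratio of 0.310 was 0.536 on pooled counts, 0.0656 in CD alone, 0.567 in HFD alone, 0.629, 0.0510 and 1.0 within cell numbers 637 to 657, 684 to 692 and 699 to 712, and at its lowest 0.157 and at its highest 0.370 when each cell was left out in turn. That of Th (1.23) was 0.0169 and 2.39 within cell numbers 637 to 657 and 713 to 720 and 0.718 to 1.68 leaving out cells. That of Ddc (0.913) was 0.436 on the normalized counts, 0.464 within cell numbers 713 to 720, and above 1 without the genes counted in every cell (1.26) and without Pomc+ CD cell 662 (1.21). That of Slc6a3 (5.38) was 1.38 on the normalized counts, 0.170 on pooled counts, 11.9 in CD alone and 5.26 to 12 leaving out cells. For diet, Th in Ghost cells (1.71) was 0.705 pooled and 0.660 to 3.71 leaving out cells, and in Pomc+ cells (1.95) 1.11 to 2.83. Ddc in Ghost cells (2.25) was 0.801 pooled, 1.21 thinned and 1.54 to 9.36 leaving out cells, the highest without Ghost CD cell 687. Ddc in Pomc+ cells (1.63) was 0.726 on the normalized counts, 2.58 thinned and 1.12 to 4.02, the highest without Pomc+ CD cell 662. Slc18a2 in Pomc+ cells (0.799) was 1.09 without Pomc+ CD cell 660, and in Ghost cells (6.91) was 3.11 thinned and 3.15 to 25.3. Slc6a3 in Pomc+ cells (0.946) was 0.324 on the normalized counts, 0.219 pooled and 0.300 to 0.998. Slc6a3 was detected in 0 Ghost cells at a minimum of 5 counts and 0 after thinning. Th with Ddc was found in 4 cells after thinning, Th with Slc18a2 in 3 at a minimum of 10 CPM, and Ddc with Slc18a2 in 7 after thinning. The cause of each change was not tested. Leaving out the highest cell of pathway genes past 2-fold was chosen after seeing the data. Several ratios have no value where 1 group held no count. No paired analysis was possible because no replicate number is shared between groups, and the values within runs of cell numbers stand above. Few positive cells per group, unequal depth and the lack of mouse labels limit all values.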
